A study of Drosophila melanogaster with 4 samples.

Results

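The ecdysone early puff loci br, Eip74EF and Eip75B were examined for regions enriched for the histone demethylase KDM4A in Drosophila melanogaster larvae. The loci were defined by 2 windows of FlyBase release 5: X 1400000 to 1600000 for br (puff 2B5), and 3L 17500000 to 18100000 for Eip74EF and Eip75B (puffs 74EF and 75B), called the br window and the 3L window here. A region belonged to a window if it shared at least 1 bp with it. By this rule 91 of the 11489 enriched regions of replicate 1 lay in the windows, 14 of them in the br window and 77 in the 3L window. In replicate 2 the windows held 53 of 5780 regions, 15 and 38. In the combined list of the series they held 93 of 11016, 14 and 79. None of the br regions crossed a window edge, while 2, 1 and 2 regions crossed an edge of the 3L window in these lists. The lists carry no gene names, and gene positions of release 5 were not used here. The windows, not gene bodies, are therefore what was measured.

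The regions came from chromatin immunoprecipitation with sequencing (ChIP-seq) on whole 3rd instar larvae of the wild-type strain Oregon-R. A rabbit polyclonal, affinity-purified antibody against JMJD2A/KDM4A was used. The study had 2 ChIP libraries and 2 input DNA libraries, and 1 region list per ChIP library and the combined list were used here. All groups were wild type, and no hormone treatment or finer staging within the instar is given. Whole larvae mix many tissues, so a region says that the protein was enriched there in the pooled chromatin and not in which tissue. Titles and source names agreed on which samples were ChIP, although the free-text description of ChIP replicate 2 names input DNA and that of input replicate 1 names ChIP DNA. Whether these samples were exchanged was not tested, and replicate 2 values rest on the titles. Nothing in the labels says whether the replicates came from separate collections, so their spread may be technical. The lists hold no read totals, so the depth behind each region is unknown.

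Ecdysone is the steroid hormone that times moulting and metamorphosis in insects. Bound to the nuclear receptor pair of EcR and Ultraspiracle, it switches on a small set of early genes, whose activity in the polytene chromosomes of larval salivary glands is visible as puffs. The products of the early genes then switch on late genes. KDM4A belongs to the JmjC-domain family of demethylases, which remove methyl groups from lysines of histone H3, and the Kdm4 enzymes of Drosophila have been linked to ecdysone signalling in larvae. The gene br encodes the Broad family of zinc finger transcription factors, which share a BTB domain. Eip74EF encodes Ets-domain transcription factors, and Eip75B encodes nuclear receptors that bind haem.

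KDM4A regions covered similar shares of the br window in both replicates. The covered length was 48.5 kb in replicate 1 (24.2% of the window), 58.3 kb in replicate 2 (29.1%), and 64.0 kb for the combined list (32.0%). The mean of the replicates was 26.7% ± 3.46 (SD, n = 2). Coverage of the rest of the X was 22.7% for replicate 1, 12.1% for replicate 2 and 22.2% for the combined list. The br window thus lay near the level of its arm in replicate 1, with a ratio of 1.07, and at 2.42 times that level in replicate 2. The combined list gave a ratio of 1.44. Among all 2223 windows of the same length placed every 10 kb along the X, those covered as much as the br window or more made up 41.4% for replicate 1, 1.93% for replicate 2 and 21.8% for the combined list. These shares describe the arm and are no test, since neighbouring windows overlap and some overlap the br window itself. No test across samples was made, since an exact two-sided sign-flip permutation of the window minus arm difference over 2 replicates cannot give a p below 0.5. With only the regions at or above the median score of each list, the br window lay below the arm in replicate 1, with a ratio of 0.763, and above it in replicate 2, with 2.54.

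The 3L window, which holds Eip74EF and Eip75B, had a covered share of 36.6% in replicate 1 (219.8 kb), 14.6% in replicate 2 (87.7 kb) and 33.7% for the combined list (202.1 kb). The mean of the replicates was 25.6% ± 15.6 (SD, n = 2). The rest of 3L was covered to 24.3%, 11.9% and 22.4% in the same lists. The window therefore lay above its arm in all 3 lists, with ratios of 1.51, 1.23 and 1.50. The 2 Mb on either side of the window also lay above the arm, with 27.2%, 13.9% and 25.6% covered. In replicate 2 the window was thus close to its surroundings. With these 2 Mb as background, the mean ratio of the replicates was 1.20, where the arm gave 1.37. Of 2395 windows of the same length along 3L, 3.13% were covered as much or more in replicate 1, 31.8% in replicate 2 and 5.26% for the combined list. With only regions at or above the median score, replicate 1 gave a ratio of 1.61 and replicate 2 one of 0.942, so the 3L window of replicate 2 then lay below its arm.

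**Figure D1:**
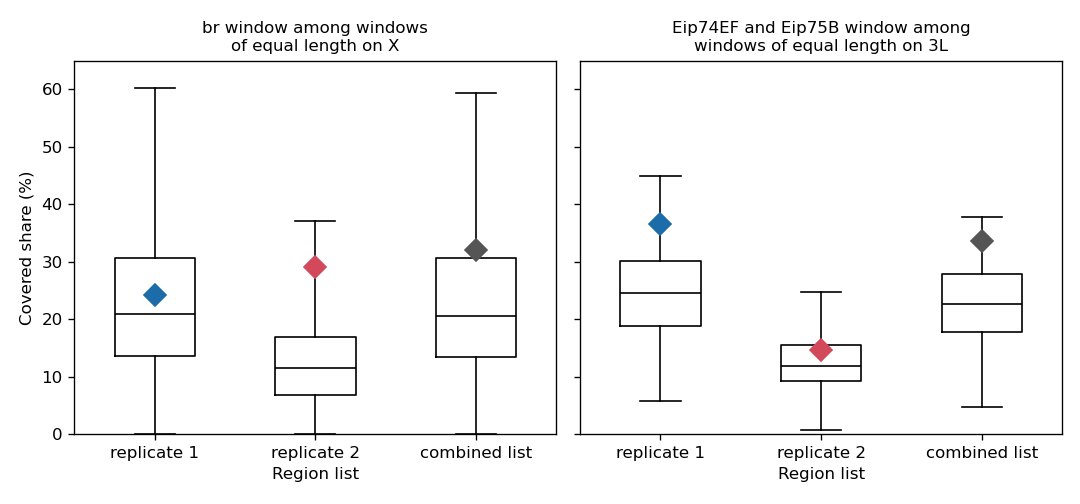
Covered share in percent (vertical axis) of the puff windows (diamonds) in each region list, against all windows of equal length placed every 10 kb on the same arm (boxes show quartiles and median, whiskers the lowest and highest window). The br window stands high among windows of the X in replicate 2, where 1.93% were covered as much or more, and the 3L window stands high on its arm in replicate 1, where 3.13% were.

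The order of the replicates differed between the windows. On the rest of the X, replicate 2 covered 53.1% as many bases as replicate 1, and on the rest of 3L 49.0%. In the br window it covered 120% as many. Replicate 2 covered more than replicate 1 in 63 of 2220 windows of that length on the X in which replicate 1 covered any base (2.84%), and its ratio was at least as high as at br in 24 of them (1.08%). Windows that overlap the br window were not left out, so these are not counts of other places on the X. In the 3L window replicate 2 covered 39.9% as many bases as replicate 1, below the 49.0% of the arm, and 84.3% of the windows of equal length had a value as high or higher. The br and 3L windows therefore departed from their arms in opposite directions in this measure. When the br window was widened by 100 kb on either side the figure was 99.9%.

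Most of the KDM4A regions of the br window lay in its second part, in a dense stretch that was present in both replicates. By steps of 50 kb from the window start, the covered share in replicate 1 was 13.6%, 2.73%, 50.2% and 30.4%. In replicate 2 it was 12.6%, 2.94%, 75.5% and 25.6%. Both lists were thus most covered in step 3 and least in step 2. Joining regions separated by at most 10 kb, a rule set after the values were seen, gave in replicate 2 a run of 10 regions from X 1502720 to 1564563. This run spanned 61.8 kb, of which 48.6 kb was covered, the second highest covered length among 383 runs on the X. In replicate 1 the longest run was X 1530853 to 1574931, with 6 regions and 31.7 kb covered, which ranked 49 of 403. The combined list had a run of 9 regions from X 1502888 to 1568372 with 53.7 kb covered, which ranked 13 of 374.

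**Figure D2:**
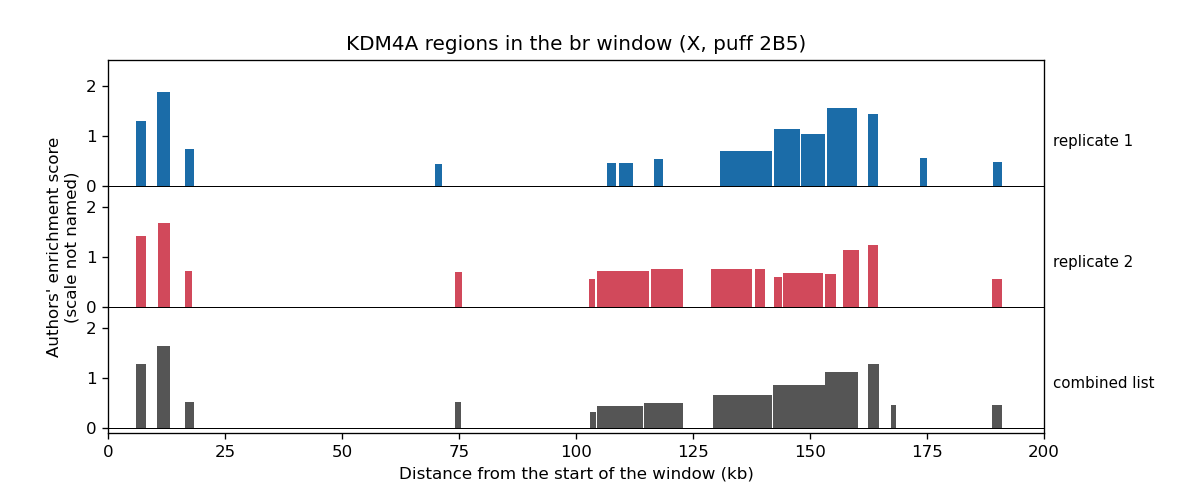
KDM4A regions of the br window in replicate 1, replicate 2 and the combined list, with distance from the window start in kb on the horizontal axis and the authors' enrichment score of each region as its height (each list has its own axis, on a scale that is not named). All 3 lists show a group of regions near the start and an almost empty stretch after it. A dense stretch follows in the second part of the window. In part of it replicate 2 has wide regions, where replicate 1 has 3 narrower ones.

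The excess of replicate 2 at br came from the distal side of this stretch. Between X 1502720 and 1522832, a span of 20.1 kb, replicate 2 had 3 regions that covered 95.9% of the sequence. Replicate 1 had 3 regions there that covered 33.3%. The combined list covered 97.4% of the same span. Scores there were 0.46 to 0.54 for replicate 1, 0.56 to 0.77 for replicate 2 and 0.32 to 0.50 for the combined list. In the next 35.7 kb, from X 1528883 to 1564563, the replicates were alike, with 84.7% covered in replicate 1 by 5 regions and 82.0% in replicate 2 by 7. Scores were 0.69 to 1.55 for replicate 1 and 0.61 to 1.25 for replicate 2. Both stretches were picked after the values were seen.

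The best-scoring region of the br window was the same in all 3 lists and lay outside the dense stretch. It was X 1410412 to 1413160 in the combined list (score 1.64, rank 46 of 1861 regions on the X). Replicate 1 had it at X 1410565 to 1413150 with a score of 1.87 (rank 56 of 1824), and replicate 2 at X 1410709 to 1413148 with a score of 1.67 (rank 29 of 1059). The next in the combined list was X 1405932 to 1408204 (score 1.29), of which replicate 1 regions covered 97.6% and replicate 2 regions 99.4%. The other 3 of the 5 best were X 1562304 to 1564648 (score 1.27), X 1553276 to 1560174 (1.12) and X 1542170 to 1553130 (0.86), all within the dense stretch. The enrichment scores are the authors' own, and their levels are not compared between lists.

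The 5 widest combined regions of the br window were all in the dense stretch, with scores from 0.45 to 1.12. The widest of the combined list, X 1529196 to 1541960, was 12.8 kb long and ranked 10 in width on the X, with a score of 0.66 (rank 662 of 1861). Replicate 1 regions covered 85.7% of it and replicate 2 regions 83.2%. The next, X 1542170 to 1553130, was 11.0 kb long and ranked 20 in width, with 96.7% and 94.6% covered. Of X 1514442 to 1522800 (8.36 kb), replicate 1 covered 24.4% and replicate 2 94.3%, and of X 1508964 to 1514356 (5.39 kb) they covered 53.3% and 100%. The remaining one, X 1553276 to 1560174, was 6.90 kb long, with 93.6% and 77.7% covered. Regions over 10 kb were 1 of 14 in the br window in replicate 1, against 20 of 1810 on the rest of the X. In replicate 2 they were 1 of 15, against 2 of 1044.

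The longest stretch of the br window without a combined region ran from X 1418439 to 1474237. It was 55.8 kb long and the gap of rank 68 among 1860 on the X. In replicate 1 the longest gap was 51.5 kb (X 1418441 to 1469959) and in replicate 2 it was 56.2 kb (X 1418020 to 1474215). All lists thus had their longest gap of the window in the same place, between the distal group of regions and the dense stretch.

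In the 3L window KDM4A regions were dense over the first 150 kb and in step 10, and nearly absent in step 5. Over the first 3 steps of 50 kb the covered share was 53.8%, 44.5% and 66.1% in replicate 1, and 21.1%, 27.9% and 26.2% in replicate 2. It was 20.6% and 5.27% in step 4. In step 5, replicate 1 regions covered 0.512%, combined regions 0.336%, and replicate 2 had 0 regions. It was 57.9% and 42.5% in step 10, the highest of the window in replicate 2 and the second highest in replicate 1. The combined list was also most covered there, to 77.1%. In steps 6, 7 and 9 replicate 1 covered 18.3%, 35.4% and 27.8%, and replicate 2 covered 4.61%, 17.6% and 15.8%. In steps 11 and 12 the shares were 36.1% and 34.6% for replicate 1, and 7.06% and 6.89% for replicate 2. The replicates differed most in relative terms, apart from step 5, in step 8, where replicate 1 covered 44.0% with 12 regions and replicate 2 covered 0.444% with 1.

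**Figure D3:**
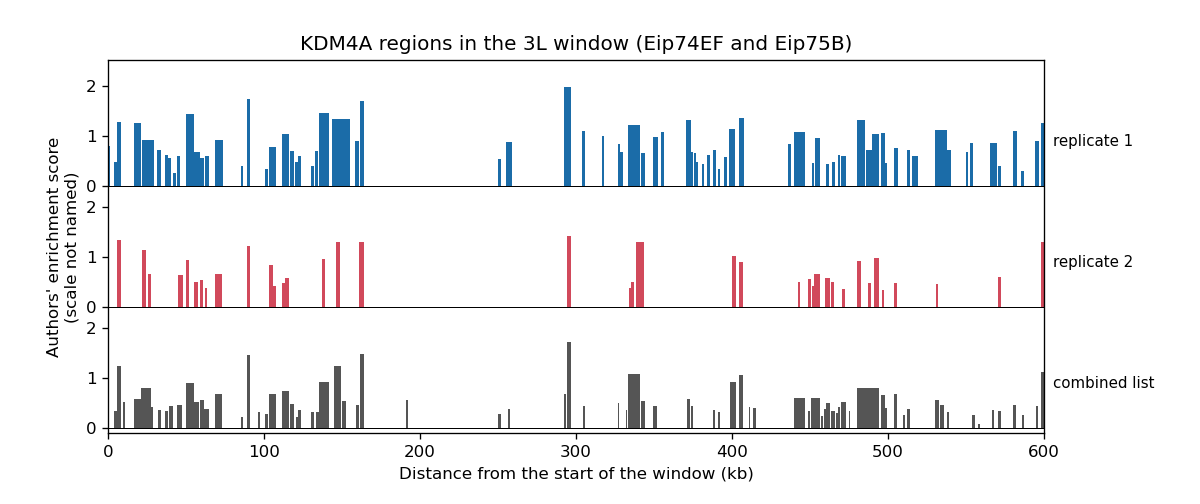
KDM4A regions of the 3L window in replicate 1, replicate 2 and the combined list, with distance from the window start in kb on the horizontal axis and the authors' enrichment score as height (each list has its own axis, on a scale that is not named). Regions are dense in the first 3 steps of 50 kb and in step 10, and the part between them holds a gap of 85.9 kb in replicate 1 and 130.5 kb in replicate 2.

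The nearly free part of the 3L window was among the longer gaps of the arm. Replicate 1 had 0 regions between 3L 17663860 and 17749743, a gap of 85.9 kb that ranked 19 among 2205 on 3L. Replicate 2 had 0 between 3L 17663804 and 17794263, a gap of 130.5 kb that ranked 25 among 1093. The longest gap of the combined list was 57.6 kb, from 3L 17692271 to 17749831, which ranked 50 of 2067. The combined list had 1 region inside the gap of replicate 1, 3L 17691092 to 17692270 (score 0.56), that neither replicate had. The gap of replicate 2 was touched by 4 regions of replicate 1 and 6 combined regions. In all 3 lists the sparse part began after the same strong region. That region, 3L 17661222 to 17663860, had a score of 1.48 in the combined list, and replicate 1 regions covered 96.6% of it and replicate 2 regions 97.8%.

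**Figure D4:**
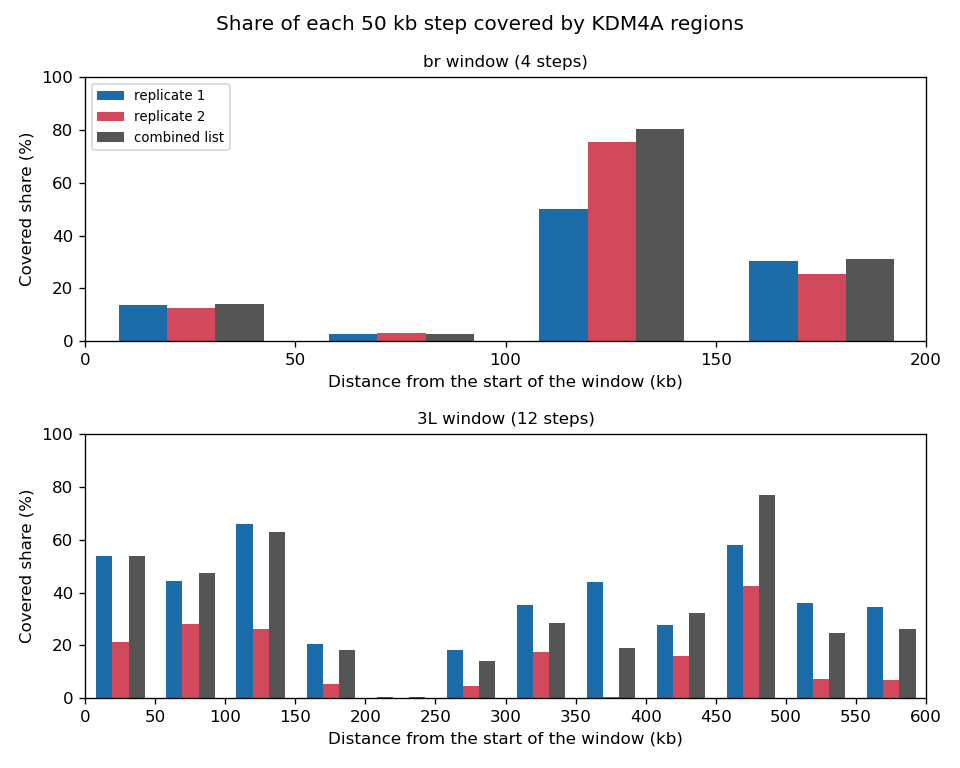
Share of each 50 kb step covered by KDM4A regions, in percent, along the br window (4 steps) and the 3L window (12 steps), with distance from the window start in kb on the horizontal axis and 1 bar per list. Replicate 2 exceeds replicate 1 most in step 3 of the br window (75.5% against 50.2%) and stays below it in every step of the 3L window.

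The strongest region of the 3L window lay on the far side of the free part and was again the same in all lists. In the combined list it was 3L 17793916 to 17796600 (score 1.72, rank 21 of 2069 regions on 3L). Replicate 1 had it at 3L 17792479 to 17796569 with a score of 1.98 (rank 27 of 2209), and replicate 2 at 3L 17794264 to 17796566 with a score of 1.43 (rank 38 of 1094). The other 4 of the 5 best in the combined list were 3L 17661222 to 17663860, named above, 3L 17589124 to 17591322 (score 1.46), 3L 17506022 to 17508422 (1.25) and 3L 17644646 to 17649272 (1.24). Each was present in both replicates, with at least 96.6% of its length covered in replicate 1. In replicate 2 the last of them was covered to 55.1% and the other 3 to at least 97.6%.

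The widest region of the 3L window was 3L 17979918 to 17994014, 14.1 kb long in the combined list and the fourth widest of the arm, with a score of 0.81. Each replicate divided it into 3 regions, which covered 90.7% of it in replicate 1 and 52.5% in replicate 2. The next widest was 3L 17833368 to 17841260 (7.89 kb, score 1.08), with 98.7% and 79.1% covered. The other 3 of the 5 widest were 3L 17939906 to 17946986 (7.08 kb), 3L 17635148 to 17641720 (6.57 kb) and 3L 17521290 to 17527634 (6.35 kb). Replicate 1 regions covered 92.5% or more of each, and replicate 2 regions 25.6%, 35.8% and 71.2%. Replicate 2 thus covered less of each of these 5 regions than replicate 1 did.

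Counted region by region at an overlap of at least 1 bp, replicate 1 touched 50 of the 53 replicate 2 regions. Of the replicate 2 regions of the br window, 13 of 15 were found in replicate 1 (86.7%, exact Clopper-Pearson 95% interval 59.5 to 98.3), against 92.0% on the rest of the X. In the 3L window 37 of 38 were found (97.4%, 86.2 to 99.9), against 93.0% on the rest of 3L. Over both windows 94.3% were found, and this fell to 52.8% at 50% reciprocal overlap and to 58.5% when replicate 1 was cut to the 5780 regions that scored best. In the reverse direction 12 of 14 replicate 1 regions of the br window were found in replicate 2 (85.7%, 57.2 to 98.2), where the rest of the X had 51.3%. For the 3L window it was 34 of 77 (44.2%, 32.8 to 55.9), near the 45.5% of the rest of that arm. Over both windows 50.5% were found, against 30.8% at 50% reciprocal overlap. At 50% reciprocal overlap, the shares of each window and of the arms were not computed in either direction. How far the br share rests on the 1 bp rule is therefore not shown. For replicate 1 regions found in replicate 2, the br interval lay above the share of its arm and the 3L interval spanned its own. A region meets replicate 2 more easily where replicate 2 covers more. Replicate 2 covered 29.1% of the br window and 12.1% of the rest of the X, so the arm is not a like background. How much of the br difference this makes was not tested. For replicate 2 regions found in replicate 1, both intervals spanned the share of their arm. The br regions do not count as independent, since X 1506700 to 1508489 and X 1509290 to 1512165 of replicate 1 met the same 11.1 kb region. The intervals cover counting error only and treat neighbouring regions as independent, and the differences themselves were not tested.

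The regions without a counterpart in the br window were short, with a median width of 1392.5 bp in replicate 1 and 1421 bp in replicate 2. The 2 of replicate 1 had scores of 0.44 and 0.57, and the 2 of replicate 2 had 0.56 and 0.71, all below the medians of 0.72 and 0.73 over the window. The 43 replicate 1 regions of the 3L window that were not found in replicate 2 had a median score of 0.68 and a median width of 1905 bp. The 34 that were found had 1.00 and 3062 bp. Their scores overlapped widely, from 0.26 to 1.33 and from 0.40 to 1.98. On the rest of 3L the medians were 0.72 for regions not found and 0.91 for those found. A wide region is more likely to meet another by position alone, so width and recovery are not independent.

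**Figure D5:**
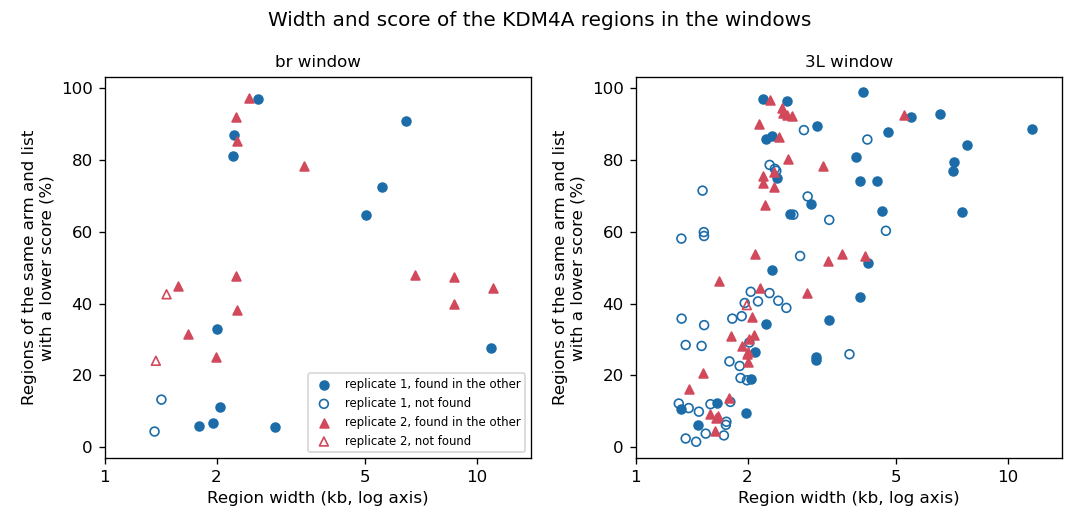
Width of each region in kb (horizontal log axis) against the percentage of regions of the same arm and list with a lower score (vertical axis), for replicate 1 (circles) and replicate 2 (triangles) in the br and 3L windows. Filled symbols are regions with at least 1 bp in the other replicate. Open symbols of the 3L window, 43 in replicate 1 and 1 in replicate 2, lie mostly among the narrower regions, and the widest br region of each replicate has a score in the lower and middle part of the range.

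Of the combined regions in the br window, 11 of 14 were found in both replicates (78.6%, exact 95% interval 49.2 to 95.3), against 48.1% on the rest of the X. A further 2 were in replicate 2 alone, 1 was in neither, and 0 were in replicate 1 alone. On the rest of the X 34.3% were in replicate 1 alone, 3.84% in replicate 2 alone and 13.8% in neither. In the 3L window 30 of 79 combined regions were found in both (38.0%, 27.3 to 49.6), against 46.3% on the rest of 3L. Replicate 1 alone held 36 of them (45.6%, 34.3 to 57.2), where the rest of the arm had 39.3%. Replicate 2 alone held 2, against 3.07% on the rest of 3L, and 11 were in neither, against 11.3%. These differences were not tested either, and the combined list is not independent of the replicate lists. The higher coverage of the br window by replicate 2 (29.1%, against 12.1% of the rest of the X) also makes overlap with replicate 2 easier there.

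Median region scores at the puff loci lay below those of their arms by amounts that varied between lists, and median widths were close to those of the arms. In the br window the median score was 0.72 in replicate 1 and 0.73 in replicate 2, against 0.89 and 0.79 on the rest of the X. At 3L it was 0.73 and 0.63, against 0.78 and 0.63 on the rest of 3L. The window minus arm difference was -0.17 in replicate 1 and -0.06 in replicate 2 at br, and -0.05 and -0.0066 in the 3L window. In the combined list it was -0.0043 at br and -0.023 in the 3L window. The median width was 2222 bp and 2266 bp in the br window, against 2166 bp and 2255 bp on the rest of the X. It was 2291 bp and 2156 bp in the 3L window, against 2180 bp and 2250 bp. Regions in the top 10% of scores of their arm numbered 2 of 14 in replicate 1 and 2 of 15 in replicate 2 in the br window. In the 3L window they numbered 5 of 77 and 6 of 38. Over each whole arm about 10% of the regions score this high by definition, and 2 regions at br are close to that share. In the 3L window the share was below 10% in replicate 1 and above it in replicate 2. Differences from 10% were not tested.

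Where the replicates placed KDM4A was also compared in bins of 10 kb. Over 20 bins in the br window, covered bases of replicate 1 and replicate 2 had Pearson's r = 0.85 and Spearman's rho = 0.84, against 0.76 and 0.76 over 2221 bins on the rest of the X. Over 60 bins in the 3L window the values were 0.61 and 0.63, against 0.69 and 0.70 over 2393 bins. Neighbouring bins share regions, so these are descriptions and carry no p. At br 11 bins held regions in both replicates, 6 in neither, 2 in replicate 1 alone and 1 in replicate 2 alone. At 3L 28 bins held both, 14 neither, 18 replicate 1 alone and 0 replicate 2 alone. The bases shared between replicates made up 62.8% of the bases covered in either at br (41.2 kb of 65.6 kb), against 43.7% on the rest of the X. Those of the 3L window made up 34.8% (79.4 kb of 228.1 kb), against 38.3% on the rest of 3L. This share cannot exceed the smaller covered length divided by the larger, and that limit differed between windows and arms. Replicate 2 covered 120% as many bases as replicate 1 at br and 53.1% on the rest of the X. In the 3L window it covered 39.9%, and on the rest of 3L 49.0%. The shared parts of window and arm therefore do not rank their agreement. Of the replicate 2 bases at br, 70.7% lay inside replicate 1 regions, below the 87.7% of the arm, while in the 3L window 90.5% did, against 84.1%.

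The windows hold more than the puff genes. In the gene table of release 6, used for names and order only, 60 genes lie between Eip74EF and Eip75B, of which 48 code for proteins. The nearest protein-coding genes beside Eip74EF are CycT, which encodes the cyclin T of the elongation factor P-TEFb, and Vps60. Those beside Eip75B are CG5290 and CG44006, and CG32192 and CG42393 overlap it. Those beside br are inc and dor, and Mur2B overlaps it. The table lists 16 RefSeq transcripts for br, 5 for Eip74EF and 7 for Eip75B. Which of the regions belong to which gene or start site was not analysed here. The br window also lies within the 2 Mb nearest the telomere of the X, of which, without the window, replicate 1 covered 20.8% and replicate 2 13.1%.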

How the data were processed

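The deposited lists give regions of significant enrichment from 2 KDM4A ChIP libraries, and 1 list for the series as a whole, on FlyBase release 5 with 1-based positions, per the file headers. The submitters' processing notes name Bowtie 0.12.7. How regions were called, against what background, and how the combined list was made is not given in the sources used here. The score of each region is the authors' own deposited value, on a scale that is not named, and was used within a list only. The input libraries were not analysed here, and 1 row typed as depleted was left out.

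A covered share is the percentage of a stretch that lies in regions, with arm lengths from the file headers, computed in Python 3.11.15 with numpy 2.4.6, pandas 2.3.3 and scipy 1.17.1. Windows of equal length were placed every 10 kb along the arm, with no random draw, and stand in place of random windows. Those that overlap a puff window were kept. Named regions were the 5 best-scoring and the 5 widest combined regions and the longest combined gap of each window. The runs, replicate ratios and matched region edges were added after the values were seen. Members and lists were chosen with earlier results of these data known. Without gene positions of release 5, the planned values per gene could not be had. The code was tested on simulated lists of known coverage and overlap. Read depth is unknown, and no test across 2 replicates was made. Alternatives were the higher-scoring part of each list (scores at or above its median), replicate 1 reduced to its 5780 best regions, 50% reciprocal overlap, wider windows, other backgrounds and each replicate left out.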

Additional observations from a re-analysis of the deposited data

How the results depend on the processing

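Of 69 alternative values, 52 stayed within 1 SD of the replicates, the exact interval or 1.5 times, and 17 did not. In part of these 17 the direction was fixed by the setting. Leaving out regions can only lower a covered share, 50% reciprocal overlap can only lower a found share, and a smaller joining gap can only shorten a run. Reducing replicate 1 can only raise the bases of replicate 2 as a percentage of those of replicate 1. It can only lower the share of replicate 2 regions found in replicate 1, and of combined regions found in both. For the others the cause was not tested. Of the 52, 16 left out a replicate, which stays within 1 SD by construction with n = 2, and the SD is wide elsewhere. Within it the 3L covered share still went from 25.6% to 14.3% with scores at or above the median, the br ratio from 1.74 to 1.14 in the widened window, and the share of equal windows covered as much as the 3L window from 17.5% to 30.9% with scores at or above the median. Leaving out a replicate gave 24.2% to 29.1% for the br covered share, 1.07 to 2.42 for its ratio to the arm, 14.6% to 36.6% for the 3L window and 1.23 to 1.51 for its ratio. The br covered share of 26.7% became 16.6% with only the regions at or above each list's median score, 20.6% with replicate 1 reduced to as many regions as replicate 2, 32.0% in the combined list, 18.0% in the widened window and 21.2% without the widest region of each list. Its score difference from the arm was -0.0043 in the combined list. With replicate 1 reduced, replicate 2 covered 242% as many bases as replicate 1 at br and 66.1% in the 3L window. The full-list arm values of 53.1% and 49.0% do not apply here, since this also lowered replicate 1 on the arms. Reduced replicate 1 had 15.9% on the rest of the X, against 12.1% for replicate 2. On the rest of 3L it had 13.8%, against 11.9%. The br window to arm ratio was 0.757 for reduced replicate 1 and 2.42 for replicate 2. For the 3L window these were 1.61 and 1.23, so 66.1% was still below its arm. Replicate 2 regions of the windows found in replicate 1 (94.3%) fell to 52.8% at 50% reciprocal overlap, 72.0% in the higher-scoring parts and 58.5% with replicate 1 reduced. Replicate 1 regions found in replicate 2 (50.5%) became 30.8% at 50% reciprocal overlap and 67.5% with replicate 1 reduced. Combined regions found in both (44.1%) became 26.9% and 25.8% in those settings. With a joining gap of 5 kb, the longest run in replicate 2 shortened from 61.8 kb to 35.7 kb at br and from 63.9 kb to 23.6 kb in the 3L window. No paired analysis was possible because the input libraries, whose numbers match, were not analysed here. Read depth is unknown, so whether and how far it limits these values could not be examined.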

Other observations

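Where a region of 1 replicate touched exactly 1 region of the other and the reverse, the edges could be compared. At br 6 such pairs had starts a median of 55 bp apart and ends 31.5 bp apart, and in 4 of them both edges lay within 200 bp (66.7%, against 29.5% of 800 pairs on the rest of the X). In the 3L window 27 pairs had starts 430 bp and ends 407 bp apart, and 4 had both edges within 200 bp (14.8%, against 21.5% of 762 pairs on the rest of 3L). Of the 27 pairs, 18 were wider in replicate 1. Of the 6 pairs at br, 2 were. These are descriptions of few pairs, and the differences from the arms were not tested. The dense br stretch, where regions of the replicates touch several others each, gave few of these pairs.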
